A study of Caenorhabditis elegans with 9 samples.

Results

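The sites described here are the noncoding DNase I hypersensitive sites (DHS) that lie in introns of Caenorhabditis elegans genes and were open both in L1 arrest larvae and in embryos. They were chosen by peak calls: a noncoding embryo DHS was a member if it overlapped a noncoding L1 DHS by at least 1 bp and carried the deposited location label intron. The rule took 5589 of the 26644 embryo noncoding DHS (21.0%). They were 39.2% of the 14247 noncoding DHS open in both stages. Of the 6498 intronic DHS in the L1 list, 5573 (85.8%, exact 95% binomial interval 84.9 to 86.6%) overlapped a member. Intervals cover counting error only.

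The data came from DNase-seq, in which DNase I cuts accessible DNA in isolated nuclei and short fragments are sequenced. All animals were wild type of the N2 strain. There were 5 replicates (V to Z) of larvae in L1 arrest, in which animals that hatch without food stop developing, and 4 replicates (A to D) of embryos of about 40 cells. The deposited lists merge the replicates, so there was 1 list per stage and no test between stages could be made. The read depth behind each site is unknown. Whole animals were used and no fed L1 larvae were sampled. More cells open at a site and a more open site in each cell therefore cannot be told apart, nor can arrest, age and cell composition.

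Introns can carry enhancers and internal promoters, and DNase I can reveal both. Enhancers bind transcription factors and act on a promoter at a distance, and in nematodes many sit in the first or the longest introns of their gene. Internal promoters start shorter transcripts from within a gene, as is known for daf-16. A DHS alone does not tell these apart. A footprint is a short stretch inside a DHS that is cut less than its flanks, as happens where a protein sits on the DNA. Scores, widths and footprints given for a member in L1 are those of the L1 noncoding DHS it overlapped most. That DHS need not have the same ends as the member.

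Introns held the largest number of embryo DHS and the lowest share that was also open in L1. Of 11672 embryo intronic DHS, 5589 (47.9%, 47.0 to 48.8%) overlapped an L1 noncoding DHS and 6083 did not, while the share over all embryo noncoding DHS was 53.5%. The shared percentage was 53.6% of 5123 promoter DHS, which lie less than 300 bp from a start codon. It was 60.3% of 3292 intergenic DHS at 300 to under 1000 bp and 59.9% of 6557 at 1000 bp or more. These shares are fixed by the rule and are given as a description, with no test. They rose with the score deposited for each peak, whose scale is unknown. From the lowest to the highest quintile of embryo score, 10.4, 23.4, 47.2, 77.7 and 91.2% of intronic DHS were also open in L1. At the highest quintile the share was 93.4% for promoters and 95.9 and 96.5% for the nearer and farther intergenic DHS.

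**Figure D1:**
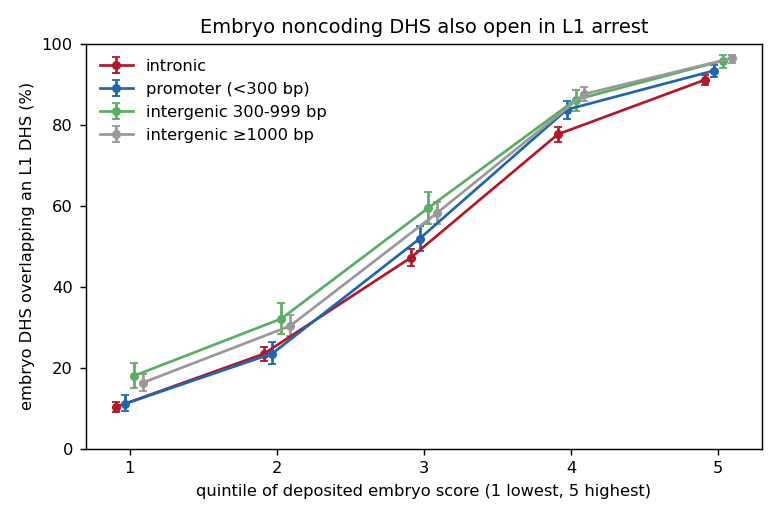
Share of embryo noncoding DHS that overlap an L1 noncoding DHS (y axis, percent) in each quintile of the deposited embryo score (x axis), by location, with exact 95% binomial intervals. Intronic sites go from 10.4% in the lowest quintile to 91.2% in the highest and lie below the intergenic sites in every quintile.

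Embryo intronic DHS without an L1 partner had lower scores and were more often cut short by an exon. Scores are given here as percentiles, the rank of a site within the noncoding list of its own stage. The median embryo percentile was 70.3 for members and 27.6 for the 6083 intronic DHS outside the rule. The noncoding lists hold the parts of DHS outside exons, and 1826 members (32.7%) had lost a part to an exon, compared with 58.1% of the embryo intronic DHS without L1 overlap. Pieces under 50 bp were 10.02% of members and 24.8% of the sites outside. A narrower piece has less room to overlap, and the part of width in the shared percentage was not tested.

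Around the 1 bp limit, the 65 members with 1 to 10 bp of overlap were mostly exon-trimmed slivers, with a median width of 21 bp and a median embryo percentile of 64.7. Just outside it, 14 intronic DHS lay 0 to 20 bp from an L1 DHS, with a median percentile of 71.8. Most sites outside were far from the limit, with a median gap of 1948 bp to the nearest L1 noncoding DHS.

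Since members were chosen by their overlap with an L1 DHS, the fit of their positions is a description. The deposited DHS from which the pieces were taken started at the same base in 2140 cases (38.3%) and 20 bp apart in 2311 (41.3%). Starts differed in steps of 20 bp, so agreement finer than such a step cannot be read from them. Together 4451 members (79.6%) had starts within 20 bp of each other. That share was 83.4% for shared promoter sites and 80.5 and 80.8% for the nearer and farther intergenic sites. Starts differed by 100 bp or more in 112 (2.00%). After exon trimming, 2329 members (41.7%) had the same start and end in L1 and embryo. The median overlap was 130 bp with quartiles of 82 and 150 bp, and 2760 members (49.4%) were covered by L1 sites over their whole width. After trimming, 3762 members (67.3%) had exactly 150 bp and 2 had more. The L1 partner was itself labelled intronic for 5578 members, and for 11 it was not.

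The percentile in the full lists was lower in L1 for most members, and the shift was small when shared sites alone were ranked. The median percentile was 51.4 (quartiles 26.1 and 76.0) in L1 and 70.3 (52.0 and 85.7) in the embryo, and the median difference, L1 minus embryo, was -14.17 points. The 2 lists differ in length, 16084 in L1 and 26644 in the embryo, so their percentiles are not matched. In the full lists 1020 members (18.3%) had the higher percentile in L1. Other shared sites moved in the same direction, with median differences of -15.61 points for promoters and -11.04 and -14.28 for the nearer and farther intergenic sites. The part of list length in the shift was not tested. Ranked among the shared sites alone, the median difference was -1.03 points, and 45.5% of members ranked higher in L1 than in the embryo. That percentage was 40.3 for promoters, 49.5 for intergenic sites at 300 to under 1000 bp and 45.6 for those farther away. Across members the scores of both stages went together with a Spearman rho of 0.741 over 5589 sites, a description only, since sites share their libraries. The promoter value was 0.793 over 2748 sites, and the nearer and farther intergenic values were 0.719 over 1985 and 0.724 over 3925 sites.

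A percentile above 90 in both lists was reached by 549 members (9.82%), against 9.13% of shared promoter sites and 9.97 and 9.15% of the nearer and farther intergenic sites. The 10 members named next were picked for the highest lower of their 2 percentiles, so a high rank in both stages is fixed by the choice. The first lay in Y32F6A.5 at chrV:10446761-10446910 (ce10), with percentiles above 99.9 and 5 footprints in each stage. It was followed by Y66A7A.9 at chrIII:11611781-11611930 with 5 footprints in L1 and 6 in the embryo. Next was cmk-1, which encodes a calcium/calmodulin-dependent kinase of sensory neurons, at chrIV:1831361-1831510 with 5 footprints in L1 and 8 in the embryo. In lin-42, the Period-like gene that times larval development, the site at chrII:1237981-1238130 had percentiles of 99.9 in L1 and 99.97 in the embryo. Next to these stood sites in bbs-1, a subunit of the ciliary BBSome, in lit-1, the Nemo-like kinase of Wnt signalling, and in fbxa-157, Y39G8C.2 and pqn-83. The piece in Y39A1A.21 was 30 bp wide and held no footprint in either stage. Scores this far above the median (29872 in L1 for Y32F6A.5, against a median of 217 over members) were deposited after the authors removed repeats and blacklisted regions. Whether reads from other copies of these sequences add to them was not tested.

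A minority of members differed widely in rank, and the balance of directions depended on the ranking. In the full lists, the L1 percentile was at least 50 points below the embryo percentile in 328 members (5.87%) and at least 50 points above it in 22 (0.394%). Ranked among shared sites alone, 32 members (0.573%) stood at least 50 points lower in L1 and 112 (2.00%) at least 50 points higher. By that ranking, 1.09% of promoters and 3.98 and 3.16% of the nearer and farther intergenic sites stood at least 50 points higher. In the full lists the share at least 50 points lower in L1 was 5.46% for promoters and 4.69 and 5.48% for the nearer and farther intergenic sites. Sites are named here by their percentiles in the full lists. The largest gain was in agef-1, a guanine nucleotide exchange factor for Arf GTPases. Its site at chrI:13611861-13612010 stood at percentile 96.1 in L1 and 21.6 in the embryo. A second agef-1 site, at chrI:13612521-13612670, stood at 92.6 in L1 and 27.0 in the embryo, with 5 footprints in each stage. Both agef-1 sites thus ranked low in the embryo list and above percentile 90 in L1. A site in C03B8.3 at chrIII:7714521-7714670 stood at 73.4 in L1 and 12.6 in the embryo. It held 0 footprints in the embryo, and its L1 partner at chrIII:7714561-7714710 held 5. The other gains were in Y82E9BR.18 and Y47H10A.5.

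In the other direction, a site in hxk-2, a hexokinase gene, at chrI:11312761-11312910 stood at 0.759 in L1 and 81.5 in the embryo. The site in lad-2, an L1CAM cell adhesion gene, at chrIV:2973001-2973150 is shared with Y54G2A.57 and stood at 2.65 in L1 and 82.3 in the embryo. In mab-3, a doublesex-related transcription factor gene, an 82 bp piece at chrII:9736881-9736962 stood at 0.246 in L1 and 77.7 in the embryo. It held 0 footprints in L1 and 2 in the embryo. Pieces in tmem-189 and nstp-5 completed the 5 largest falls. These sites passed the peak call in L1 near its lower limit, so they count as open in both stages on a weak L1 call.

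Footprints were called in most members. In L1, at least 1 footprint lay in the overlapping L1 DHS of 4381 members (78.4%, 77.3 to 79.5%). In the embryo, at least 1 lay in 4843 members (86.7%, 85.7 to 87.5%). Both stages had one in 4181 members (74.8%), L1 alone in 200 (3.58%), the embryo alone in 662 (11.8%) and neither in 546 (9.77%). The members without any had a median width of 47 bp. Where footprints were present, their mean number was 2.42 in L1 and 2.91 in the embryo after overlapping calls were merged. The number of reads sets how many footprints can be called, and it is unknown for both stages.

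Width and score went with the footprint share. In L1 it was 18.9% for pieces under 50 bp, 48.0% at 50 to under 100 bp, 80.6% at 100 to under 150 bp and 92.8% at 150 bp or more. In the embryo the shares in the same order were 34.5, 68.8, 91.6 and 97.4%. Among members of 150 bp or more, the lowest score quintile had a footprint in 82.1% in L1 and 91.4% in the embryo. In the highest quintile all 758 L1 and all 753 embryo sites had at least 1. The mean number went from 1.53 in the lowest to 3.75 in the highest quintile in L1, and from 1.99 to 4.51 in the embryo.

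**Figure D2:**
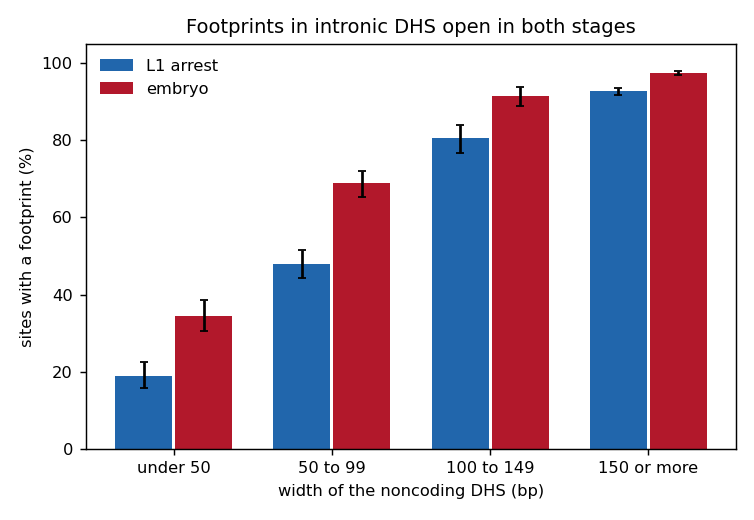
Share of intronic DHS open in both stages that hold a footprint (y axis, percent), by width of the noncoding piece (x axis, bp), in L1 arrest and in the embryo, with exact 95% binomial intervals. The share in L1 goes from 18.9% under 50 bp to 92.8% at 150 bp or more, and in the embryo from 34.5% to 97.4%.

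Over sites of any width, members held a footprint less often than other DHS open in both stages, while none of the differences passed the test among sites of full width. In L1 the difference in share, members minus others, was -4.22 percentage points against promoters (78.4% and 82.6%, Fisher's exact test, adjusted p = 5.96e-06). It was -14.81 points against intergenic sites at 300 to under 1000 bp (93.2%, adjusted p = 1.72e-57) and -15.14 points against those at 1000 bp or more (93.5%, adjusted p = 3.27e-98), also by Fisher's exact test. In the embryo the differences, by Fisher's exact test, were -3.60 points (86.7% and 90.2%, adjusted p = 2.09e-06), -10.12 points (96.8%, adjusted p = 1.42e-43) and -11.21 points (97.9%, adjusted p = 9.25e-95). All 6 tests were two-sided and adjusted together by the Benjamini-Hochberg method. Sites under 150 bp were 32.2% of members in L1, 33.4% of promoter sites and 0% of both intergenic classes. Among sites of 150 bp or more the difference was 0.52, -0.43 and -0.76 points in L1 and 1.02, 0.67 and -0.41 points in the embryo against promoters, nearer and farther intergenic sites. None of the 6 passed (adjusted p from 0.209 to 0.553, Fisher's exact test), and 1, the embryo against promoters, had an unadjusted p under 0.05 (0.0349). None passed within strata of score and width either (adjusted p from 0.422 to 0.497, Mantel-Haenszel). Against the intergenic classes, which hold no site under 150 bp, these strata compare sites of full width only. Neighbouring DHS are not independent, so these p-values treat linked sites as separate.

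Footprints of both stages were compared in place, with no test. Within the intervals open in both, members held 9845 merged footprints in L1 and 13220 in the embryo, with median widths of 21 and 17 bp. Of the L1 footprints 7631 (77.5%, 76.7 to 78.3%) overlapped an embryo footprint by at least 1 bp, and of the embryo footprints 8170 (61.8%, 60.97 to 62.63%) overlapped an L1 footprint. L1 footprints covered 34.6% of those intervals and embryo footprints 42.0%. A footprint spans several bases and so meets another more often than this coverage, and the overlap that unrelated positions would give was not tested. With at least 50% of both footprints overlapping, the shares were 45.7% of L1 and 34.0% of embryo footprints. Promoter sites gave 78.9% for L1 and 62.4% for the embryo at 1 bp.

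The members with most footprints were ranked by the sum over both stages. The first was in clec-172, a C-type lectin gene, at chrIV:1515961-1516110, with 10 in L1 and 7 in the embryo. The site in mdt-8, a Mediator subunit gene, at chrII:11530101-11530250 held 7 in each stage. Sites in Y47H10A.4 and ZK849.1 held 6 in L1 and 8 in the embryo. The site of pqn-83, which is shared with Y39E4B.13, held 7 in each stage and also belonged to the 10 strongest. In the embryo alone the highest number, 9, was at chrIII:3234661-3234810 in Y53G8AL.1, a site named after its values were seen, with 2 in L1. Over all members, 1208 had no footprint in L1 and 746 none in the embryo, and the commonest numbers in those with any were 2 in L1 (1392 members) and 3 in the embryo (1216).

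Footprint positions inside the 150 bp sites were lopsided along the chromosome. In the outer 25 bp at the low-coordinate end, footprints covered 7.17% of bases in L1 and 12.0% in the embryo. At the high-coordinate end the coverage was 37.1% in L1 and 42.0% in the embryo. Other shared DHS of 150 bp had the same lopsidedness, with 7.76% at the low and 36.6% at the high end in L1, and 11.8% and 41.6% in the embryo. Within 25 bp of the centre, coverage of members was 46.5% in L1 and 52.8% in the embryo. The ends are named by chromosome coordinate and not by the direction of the gene. A shift between the peak and footprint coordinates was not tested.

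**Figure D3:**
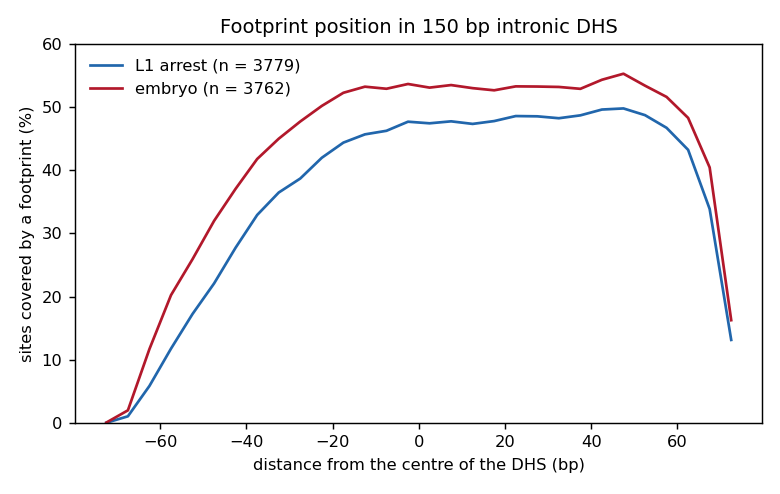
Share of 150 bp intronic DHS open in both stages that is covered by a footprint (y axis, percent) against the distance from the centre of the DHS along the chromosome (x axis, bp), in L1 arrest (3779 sites) and in the embryo (3762 sites). Coverage is near 0 at the low-coordinate end and rises to 49.8% in L1 and 55.3% in the embryo on the high-coordinate side before it drops.

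Compared with other DHS open in both stages, members were less common on the X chromosome and more common on chromosome III. The X chromosome carried 838 members (14.99%) and 1962 of the 8658 other shared DHS (22.7%), a difference of -7.67 percentage points (odds ratio of 0.602, Fisher's exact test with p adjusted over the 6 chromosomes, 2.93e-29). Chromosome III carried 17.7% of members and 13.3% of the others, 4.42 points more (odds ratio of 1.405, Fisher's exact test, adjusted p = 2.64e-12). The embryo intronic DHS without L1 overlap, which did not enter the test, had 17.3% on III and 18.6% on X, so the share on III was nearly that of members. Both calls held under all 4 alternatives run, with differences of -7.83 to -6.97 points for X and 4.26 to 4.57 for III. By Fisher's exact test chromosome I (1.61 points, adjusted p = 0.0157) and chromosome II (1.61 points, adjusted p = 0.0195) also passed. Chromosome I lost its call with a shortened embryo list, and chromosome II with that list and with 1 DHS per gene. Chromosomes IV and V did not pass (adjusted p = 0.345 each, Fisher's exact test). The length of introns on each chromosome was not compared, so its part was not tested.

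**Figure D4:**
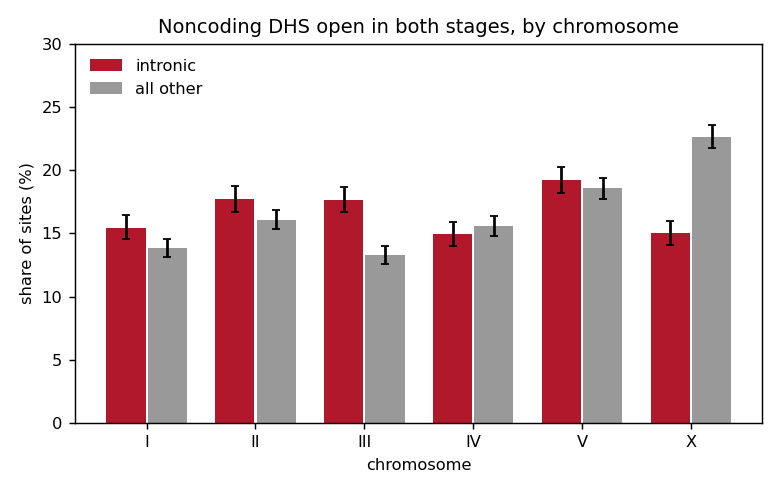
Share of sites on each chromosome (x axis) among the 5589 intronic DHS open in both stages and among the 8658 other noncoding DHS open in both (y axis, percent), with exact 95% binomial intervals. The X chromosome holds 14.99% of the intronic and 22.7% of the other sites, and chromosome III 17.7% and 13.3%.

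The shared percentage of embryo intronic DHS also differed by chromosome. It was 55.2% of 1947 sites on V, 42.5% of 1971 on X and between 46.4 and 48.5% on the others. The central of 3 equal parts of each autosome, measured between its outermost embryo DHS, held 24.5 to 29.1% of its members but 34.0 to 38.3% of its other shared DHS. For embryo intronic DHS without L1 overlap the range was 28.2 to 33.9%, below the other shared DHS on every autosome, as for members. On X the values were 30.3% of members and 29.7% of the others. These positions are a description with no test.

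The members lay in 3316 genes. Of these, 3188 matched a protein-coding gene, which is 16% of the 19983 coding genes and 57.4% of the 5553 coding genes with any embryo intronic DHS. A single member was present in 2169 genes (65.4%), 161 genes had at least 5, and 19 had at least 10. Members that neighbour each other in a gene were a median of 1130 bp apart (quartiles 490 and 2647 bp), and 25.9% of gaps were under 500 bp. The share of sites also open in L1 rose with their number: 42.4% in genes with 1 embryo intronic DHS, 45.9% with 2, 49.0% with 3 to 4, 52.7% with 5 to 9 and 53.9% with 10 or more.

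The gene with most members was kcnl-1, which encodes a small-conductance calcium-activated potassium channel. It held 22 members of 28 embryo intronic DHS, spread over 33.8 kb of chromosome V, and 23 intronic DHS in L1. Their L1 percentiles ran from 3.48 to 81.1 and their embryo percentiles from 11.6 to 85.2, so kcnl-1 was rich in sites of low to middling rank with none above percentile 90. The median was 35.5 in L1 and 51.0 in the embryo. A footprint was present in 19 of the 22 in L1 and in 20 in the embryo.

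In daf-16, the FOXO transcription factor of insulin signalling that larvae need to survive L1 arrest, 14 of 22 embryo intronic DHS were also open in L1, over 21.1 kb of chromosome I. All 13 of its L1 intronic DHS overlapped a member, since 1 wider L1 site spanned parts of 2 members. The highest ranking were at chrI:10757101-10757250, with percentiles of 97.4 in L1 and 98.7 in the embryo, and at chrI:10765821-10765970, with 97.4 and 98.9. At the high-coordinate end of the run, the site at chrI:10774381-10774530 stood at 97.3 in both stages, with 5 footprints in L1 and 6 in the embryo. The site at chrI:10768781-10768930 stood at 7.81 in L1 and 80.9 in the embryo, and the one at chrI:10758081-10758230 at 6.67 in L1 and 56.1 in the embryo. Neighbouring sites of daf-16 thus kept very different ranks in L1, while all 14 were above percentile 54 in the embryo. Members of all genes also reached lower in L1, with a lower quartile of 26.1 there and 52.0 in the embryo.

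The other genes named are taken from those with most members, whatever their function. The protein kinase D gene dkf-2 had 14 of 23, and the receptor tyrosine phosphatase gene ptp-3 had 14 of 32. The DYRK kinase gene mbk-2 had 12 of 19, and the polarity kinase gene par-1 had 11 of 17. In egl-8, which encodes a phospholipase C beta, all 11 were open in both stages. The Ras GTPase-activating gene gap-2 had 11 of 19, the zinc finger homeobox gene zfh-2 had 11 of 14, the CREB gene crh-1 had 10 of 12, and the nuclear receptor gene nhr-27 had 11 of 28 over 86.5 kb. In Y61B8A.6, 16 of 22 lay across 130 kb.

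Median ranks differed between these genes. In emb-4, an intron-binding RNA helicase gene, 12 of 14 sites were members with a median percentile of 92.4 in L1 and 92.8 in the embryo, and all 12 had footprints in both stages. In Y48C3A.5, with 16 of 19, it was 66.0 in L1 and 87.8 in the embryo, and all 16 had footprints in both stages. Over the 15 genes with most members, 174 of 197 members had a footprint in L1 and 189 in the embryo.

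**Figure D5:**
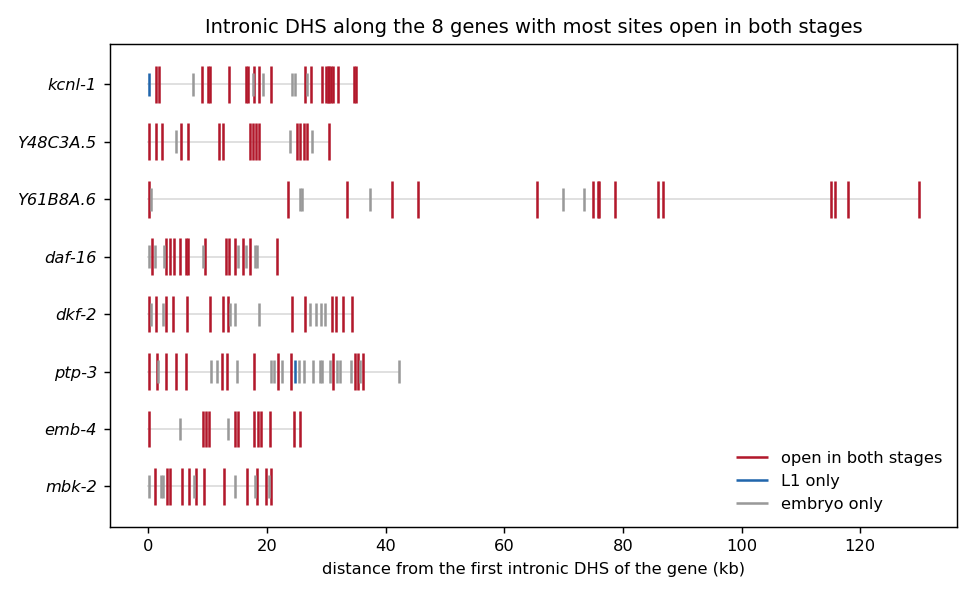
Intronic DHS along the 8 genes with most members, as the distance from the first intronic DHS of each gene in kb (x axis), 1 gene per row. Tall red lines are DHS open in both stages and short blue and grey lines are DHS of L1 only and embryo only. The 22 shared sites of kcnl-1 include a dense run near the high-coordinate end, and the 16 of Y61B8A.6 spread over 130 kb.

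In some genes all sites were shared and in others none, and these are named after their values were seen. Of 476 genes with at least 5 embryo intronic DHS, 22 had all of them open in L1 and 14 had none. Over all embryo intronic DHS the shared percentage was 47.9. How many such genes that percentage alone would give was not tested. After egl-8, those with all included dmd-7, a doublesex-related gene, gip-1, a subunit of the gamma-tubulin ring complex, and sec-23, a COPII coat subunit, with 7 of 7 each. Those with none included the ephrin genes efn-4 (0 of 7) and vab-2 (0 of 6), which act in the movement of cells during embryonic enclosure. The R-ras gene ras-1 had 0 of 7, the sodium leak channel gene nca-2 had 0 of 5, and the OTX homeobox gene ceh-37 had 0 of 5.

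Gene groups differed in how often they had a member. The lists are short and chosen by function, intron lengths were not matched, and the background over all coding genes is 16%. By percentage, neuronal and adhesion lists lay above it, as did every other functional list. The lowest were 18.5% for cell cycle and 20.0% each for pharynx and intestine. Their exact intervals were 6.3 to 38.1% for cell cycle, 5.7 to 43.7% for pharynx and 6.8 to 40.7% for intestine. These include the background, as do those of other lists, among them Notch and Wnt, so such lists cannot be placed above it. Some lists share genes, such as daf-12 and gap-2, and are not separate cases. A member was present in 24 of 35 genes of cadherins and cell junctions, with 9 in the neurexin gene nrx-1 and 8 in the spectraplakin gene vab-10. It was present in 27 of 40 genes of G proteins and their regulators and in 27 of 45 of axon guidance, where mig-10, a lamellipodin gene, had 10. Potassium channels gave 15 of 26, with 22 in kcnl-1 and 9 in the ERG-type channel gene unc-103. Synaptic release gave 18 of 39, with 9 in unc-31, which acts in dense core vesicle release.

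Muscle and timing genes also lay above the background. The sarcomere list gave 20 of 37, with 9 in the titin gene ttn-1 and 7 in unc-22, which encodes twitchin. The heterochronic list gave 12 of 21, with 7 in lin-14, the target of the lin-4 microRNA, and 5 in lin-42. In starvation and energy sensing it was 18 of 38, with 9 in hlh-30, the TFEB factor that switches on autophagy genes. In the insulin pathway it was 11 of 28, and daf-16 held 14 of the 26 members of that list. Of the embryo intronic sites in these lists, 53.5% (sarcomere), 57.6% (heterochronic), 56.8% (starvation) and 51.0% (insulin) were also open in L1. The share over all coding genes was 47.7%. In the insulin list (26 of 51 sites) daf-16 alone gave 14 of 22, and the share without it was not computed.

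By percentage of genes, lists of transcription factors also lay above the 16% background. Not all of them did by site, and differences between lists were not tested. The exact intervals by gene included the background for Hox genes (11.8 to 88.2%) and for GATA and endoderm or epidermis factors (11.8 to 61.6%). The interval for zinc finger, POU and TALE homeobox factors (15.2 to 64.6%) also included it. Forkhead factors gave 7 of 15, with 8 members in fkh-7, and named nuclear receptors 21 of 45, with 5 in the dauer receptor gene daf-12. Of neuron terminal identity factors 19 of 40 had a member, of zinc finger, POU and TALE homeobox factors 6 of 16, and of GATA and endoderm or epidermis factors 5 of 15. The Hox list gave 3 of 6: nob-1 had 3 members, mab-5 had 2 and lin-39 had 1 of its 5 embryo intronic DHS. The lin-39 site was at chrIII:7535421-7535570, with percentiles of 52.0 in L1 and 59.1 in the embryo and 2 footprints in each stage. No member lay in ceh-13. Of embryo intronic sites, 40.5% in nuclear receptors, 40.0% in Hox genes and 47.3% in neuron identity factors were also open in L1. The share was 65.4% for forkhead, 67.5% for zinc finger, POU and TALE and 53.8% for GATA and endoderm or epidermis factors. Over all coding genes it was 47.7%. Of the 34 forkhead members 14 were in daf-16, and of the 27 zinc finger, POU and TALE members 11 were in zfh-2.

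Large gene families were below the background. Chemoreceptors gave 109 of 1309 (8.33%), C-type lectins 27 of 239 (11.3%), collagens 10 of 176 (5.68%), ribosomal protein genes 4 of 77 (5.19%) and histones 2 of 72 (2.78%). Among coding genes with an embryo intronic DHS the background is 57.4%. Of such genes, a member was present in 61.9% of 176 chemoreceptor, 50.0% of 20 collagen and 47.4% of 57 lectin genes. For ribosomal protein genes it was 4 of 16, and for histones 2 of 2. Among the functional lists the same percentage was 40.0 for pharynx, 45.5 for intestine, 50.0 each for muscle factors and cell cycle and 57.1 for cilia. It was 82.8 for cadherins and junctions, 84.4 for axon guidance, 81.8 for G proteins and 75.0 for potassium channels. Genes with more embryo intronic DHS have more chances to hold a member, and the share of sites in the last 4 lists was nearer the 47.7% over all coding genes. It was 44.7% for cadherins and junctions, 49.1% for axon guidance, 55.0% for G proteins and 58.0% for potassium channels. In the potassium channel list kcnl-1 alone held 22 of the 58 members and 28 of the 100 embryo intronic sites. The share without kcnl-1 was not computed.

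The authors also deposited sequence motifs found in embryo DHS and lists of genes for each. For 10 motifs of intronic embryo sites, 699 genes were listed, all with an embryo intronic DHS, and 551 of them (78.8%) held a member. Over all genes with an embryo intronic DHS the percentage was 57.3, and the motif genes had more sites each, so the percentages are not matched. The percentage ran from 48.0 to 97.2 over the 10 motifs, and the letters of 2 are shown because their genes lay near the opposite ends of that range.
motif of 31 genes: GAAGCTATGC
motif of 25 genes: TGCGCCTTTAA
The capitals mark the whole motif, 5′ to 3′. The first was listed for 31 genes, of which 30 held a member (96.8%, 83.3 to 99.9%), with 70 members among them and up to 7 in gip-1 and Y59A8B.21. The second was listed for 25 genes, of which 12 held a member (48.0%, 27.8 to 68.7%). The mean number of embryo intronic DHS per gene was 3.06 for the first motif and 2.08 for the second, against 2.06 over all such genes. The lists name genes and not positions, so it was not tested whether the motifs lie in the members themselves.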

How the data were processed

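DNase-seq peaks and footprints of N2 animals were used as deposited, 1 merged list per stage. Per the series' design text, the authors called peaks with HOTSPOT version 3 over 150 bp windows, kept those at an IDR level of 0.1, removed repeats and blacklisted regions, merged overlapping peaks, and took locations from WormBase WS241 gene models. Footprints of 6 to 40 bp came from DNase2TF at an FDR of 0.05. The submitters' processing notes name Bowtie 1.0.0 and ce10. Reads were 50 bp in 3 L1 and 3 embryo replicates and 76 bp in 2 L1 replicates and 1 embryo replicate, per the labels. Each deposited peak and footprint score has no stated scale. Peak scores were used only as ranks within a list, and footprint scores were not used.

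Overlaps were computed in Python 3.11.15 with pandas 2.3.3, with coordinates in ce10 counted from 1. Overlapping footprints were merged. Intergenic sites were split at 300 and 1000 bp from the start codon. Shares have exact Clopper-Pearson 95% intervals. Shared intronic DHS were set against other shared DHS by Fisher's exact test, two-sided (scipy 1.17.1), with p-values adjusted by the Benjamini-Hochberg method over each family and a threshold of 0.05, and with Mantel-Haenszel tests within score quintiles and 25 bp width bins (statsmodels 0.14.6). Fisher's exact test was tried on simulated independent counts for the X chromosome share, and the Mantel-Haenszel test was not. Gene names came from the deposited annotation, and coding genes from a RefSeq gene table (WBcel235), used for names only.

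Members, gene lists and tests were chosen with earlier results of these data known. Named genes are the 15 with most members, the 10 strongest members, the 5 largest rank changes each way, the 5 members with most footprints, up to 3 genes per list, and ceh-13, lin-39 and daf-16. Some are left out for brevity. No DHS sequence is printed, since no genome of the files' build was used here.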

Additional observations from a re-analysis of the deposited data

How the results depend on the processing

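The number of sites stayed between 4772 and 5766 under every other overlap, annotation and list length tried, and the number of coding genes with a member at 3128 when 50% of the embryo DHS had to be covered. With DHS of at least 150 bp only, the footprint differences of intronic sites, in percentage points against promoters, nearer and farther intergenic sites, were 0.52, -0.43 and -0.76 in L1 and 1.02, 0.67 and -0.41 in the embryo. Within strata of score and width they were -0.59, -0.48 and -0.83 in L1 and 0.38, 0.57 and -0.42 in the embryo. None of these passed the test, whereas all 6 passed over sites of any width. Counting only footprints wholly inside the DHS changed no site's footprint status, so over sites of any width this alternative is no separate check. With 1 DHS per gene, the chromosome II difference was 1.53 points and lost its call, and that of chromosome V was -0.34 points. With the embryo list cut to the L1 length, chromosomes I and II gave 1.38 and 1.32 points and lost their calls. Keeping 1 piece per DHS, an alternative chosen after seeing the data, changed no call. Reciprocal 50% overlap gave 45.7% for L1 footprints and 34.0% for embryo footprints. Ranks among shared sites gave a median shift of -1.03 points. The lists merge replicates, so no replicate could be left out and depth is unknown. No paired analysis was possible because the lists hold 1 merged entry per stage and the stages share no replicate letters.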
